A study of Mus musculus with 12 samples.

Results

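Mouse gastruloids were embedded in a soft hydrogel either early, at 72 h of culture, or late, at 96 h, and the transcriptomes of both groups were compared at the same end point, 120 h. Gastruloids are aggregates of mouse embryonic stem cells that break symmetry, elongate and form derivatives of the germ layers without extraembryonic tissue. The 6 libraries compared here, 3 embedded at 72 h and 3 embedded at 96 h, were all those of the series in which the gel was 1.0 mM, and the other 6 of the 12 libraries came from the stiffer 1.5 mM gel. All groups were made from 129/SVEV embryonic stem cells, seeded at 300 cells per aggregate, left to aggregate for 48 h and given a 24 h pulse of 3 µM CHIR 99021, an inhibitor of the kinase GSK3 that turns on the canonical Wnt pathway. The gel was a dextran network crosslinked with polyethylene glycol, which was dissolved with dextranase at collection. Each library held about 30 pooled gastruloids, so that differences from one gastruloid to the next are averaged within a library. Gastruloids embedded at 72 h also stayed longer in the gel than those embedded at 96 h, so the moment of embedding and the time spent embedded cannot be told apart, and no library without a gel was analysed here.

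Gastruloids at this end point carry an anterior-to-posterior order that can be read from a few gene families. Genes of naive pluripotency are those that embryonic stem cells hold on before they become primed for differentiation. The Nodal pathway, a TGF-beta family signal, patterns the streak and the left-right axis, and its inhibitors Lefty1 and Lefty2 are among its own targets. Hox genes lie in 4 clusters and are switched on in the order in which they lie, so that low-numbered genes mark anterior and high-numbered genes posterior positions. Presomitic mesoderm forms in the posterior of the body and gives rise to somites, while anterior mesoderm gives rise to the heart.

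The 6 libraries held 23615893 to 27609422 counts, and the lowest total of the late group exceeded the highest of the early group (exact permutation test, two-sided p = 0.1, the smallest that 3 against 3 libraries allow). Mitochondrial genes, which were left out of the tests, took 2.13% ± 0.458 of counts after early and 2.67% ± 0.269 after late embedding (SD, n = 3 each). Ribosomal and other structural RNAs took 1.2, 2.352 and 2.995% of counts in the early libraries and 0.2856, 0.7875 and 0.6602% in the late ones (exact permutation test, p = 0.1), most of it in the ribosomal RNA gene *CT010467.1*. That share was higher in every early library than in any late one. Leaving these genes out of the fit gave 662 differentially expressed genes in place of 678. In a principal component analysis of the 500 most variable genes, the first component took 77.7% of the variance and separated the groups, from -26.6 to -18.3 in early and from 16.2 to 27.9 in late libraries.

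Levels are given as CPM, counts of a gene scaled to a common total over the non-mitochondrial genes with edgeR's TMM factors, and for each gene in the order replicate 1, 2, 3. A gene "rose" or "fell" after early embedding where its adjusted p was below 0.05 in edgeR's quasi-likelihood test over 15763 genes, and it was differentially expressed (DE) where its log2 fold change was also above 1 in size. A positive log2 fold change means a higher level after embedding at 72 h. Of all genes tested, 5.97% rose and 3.27% fell, and 2.61% were DE higher and 1.69% DE lower, with a median log2 fold change of -0.005. Without 96 h replicate 3, 429 genes were DE in place of 678, and the DE-higher genes numbered 258 without 96 h replicate 2 and 224 without 96 h replicate 3, in place of 411. Changes were more frequent among genes of low level: 4.84% of genes between 1 and 10 CPM were DE higher, against 0.556% of genes over 100 CPM. A call said to be lost was lost when the library named was left out, and is given with the adjusted p then obtained. Groups without overlap are reported mostly for genes that had passed this test, so they describe the spread and are not further support. The share of such genes among all genes tested is not given. In bulk libraries, fewer cells of a type and less RNA per cell cannot be told apart, and this holds for every gene group below.

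Genes of naive pluripotency fell after early embedding. Of 12 members tested of a list of 13, 8 fell and 1 rose. *Nr0b1* and *Prdm14* passed the filter on low counts only through the late libraries, where they were higher and so had to differ, and of the other 10 members 6 fell and 1 rose, with a median log2 fold change of -1.09. Summed over the list the groups overlapped, at 49.2 to 82.7 CPM early and 67.4 to 90.5 CPM late. The highest early sum, that of replicate 1, included 47.3 CPM of *Tbx3*, described below. *Nanog*, a transcription factor of the pluripotent state, stood at 2.62, 2.44 and 2.57 CPM after embedding at 72 h and at 11.8, 8.85 and 9.08 CPM after embedding at 96 h, a 3.899-fold lower level (log2 fold change -1.96, SE 0.1800, adjusted p = 0.000134). The early libraries lay within a narrow range, all below the lowest late library. *Zfp42* (Rex1), a marker of the naive state, stood at 1.24, 1.78 and 1.05 CPM early and 10.02, 6.78 and 6.34 CPM late (log2 fold change -2.50, SE 0.261, adjusted p = 0.0002697). Here too the groups did not overlap, and the highest late value was that of replicate 1, as it was for 7 of the 8 members that fell. *Nr0b1*, a nuclear receptor of the naive network, *Prdm14*, a repressor that guards it, and *Fgf4*, the growth factor through which stem cells leave it, changed by -3.97, -2.89 and -2.42 on the log2 scale, the first of these from 4 counts in the early group as a whole. *Esrrb*, a nuclear receptor that sustains self-renewal, changed by -1.58. The member that rose was *Tbx3*, a T-box factor also expressed in mesoderm, at 47.3, 21.9 and 23.2 CPM early and 13.1, 14.04 and 5.67 CPM late, a call lost without 96 h replicate 3 (adjusted p = 0.0513). *Klf4*, another naive factor, did not pass, at 12.6, 10.7 and 6.95 against 11.3, 8.36 and 11.9 CPM.

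The Dppa genes, which mark pluripotent and early embryonic cells, fell in the 3 members tested of a list of 5, of which *Dppa2* passed the filter only through the late libraries and so had to differ. *Dppa5a* went from 50.04, 43.1 and 37.5 CPM after late to 6.43, 8.02 and 5.43 CPM after early embedding. *Dppa2* and *Dppa4*, which act as partners on chromatin, changed by -3.31 and -1.77 on the log2 scale. Summed over the list, the early libraries held 10.03, 12.52 and 9.013 CPM and the late libraries 66.46, 58.76 and 51.76 CPM, which leaves a wide gap between the groups.

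Genes of the core pluripotency network split. Of 10 tested, 5 fell and 2 rose. *Tdh*, a threonine dehydrogenase of embryonic stem cells, stood at 0.729, 0.909 and 0.463 CPM early and 7.02, 6.57 and 5.48 CPM late, a 9.01-fold lower level with no overlap. *Utf1*, a chromatin factor of pluripotent cells, and *Pou5f1* (Oct4), a central factor of the network, were 4.83-fold and 2.72-fold lower after early embedding. *Sox2*, which is also a neural gene, was only 1.498-fold lower, with 18.2, 20.5 and 24.01 CPM early and 37.7, 27.8 and 28.5 CPM late, and its call was lost without 72 h replicate 1, 72 h replicate 2, 96 h replicate 1 or 96 h replicate 3 (adjusted p from 0.0504 to 0.113). In the other direction, *Sall4*, a zinc finger factor, and *Lin28a*, an RNA-binding protein that blocks let-7, moved by 0.32 and 0.36 on the log2 scale. The call of *Sall4* was lost without 96 h replicate 1, 96 h replicate 2 or 96 h replicate 3 (adjusted p from 0.0549 to 0.101). That of *Lin28a* was lost without 72 h replicate 1, 72 h replicate 3, 96 h replicate 1, 96 h replicate 2 or 96 h replicate 3 (adjusted p from 0.0872 to 0.134). *Dnmt3l*, the catalytically inactive partner of the de novo DNA methyltransferases, fell by 2.36 on the log2 scale and was the one of 8 DNA methylation genes tested that passed. *Lncenc1*, a long non-coding RNA named for naive embryonic stem cells, was 3.95-fold lower, at 1.97, 1.86 and 2.02 against 9.95, 5.88 and 7.34 CPM. Of 9 germ-cell genes tested, *Prdm14*, described above, and *Tfap2c*, a factor of germ cell specification, fell, and *Prdm1* (Blimp1), which acts in the germ line and in mesoderm and endoderm, rose to 68.5, 81.2 and 97.5 CPM from 46.1, 40.9 and 36.1 CPM. None of 9 genes of the 2-cell-like state had enough counts to be tested.

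The promoter of *Zfp42* is printed because its gene lay in the group that fell and the window holds the octamer that Pou5f1 binds. RefSeq places it at chr8:43307010-43307209 on the minus strand of GRCm38.p6. The line runs 5′ to 3′ over the 200 bases before the start, with the octamer in capitals, its first base 186 bases before the start.
Zfp42 promoter: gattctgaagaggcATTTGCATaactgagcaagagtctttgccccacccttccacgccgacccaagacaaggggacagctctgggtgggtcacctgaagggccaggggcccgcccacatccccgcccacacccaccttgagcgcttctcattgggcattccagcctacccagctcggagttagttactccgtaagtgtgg
The octamer ATTTGCAT, on either strand, occurred in 1.35% of 14533 promoters of tested genes, in 2.76% of 217 promoters of DE-lower genes and in 2.33% of 387 promoters of DE-higher genes.

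**Figure D1:**
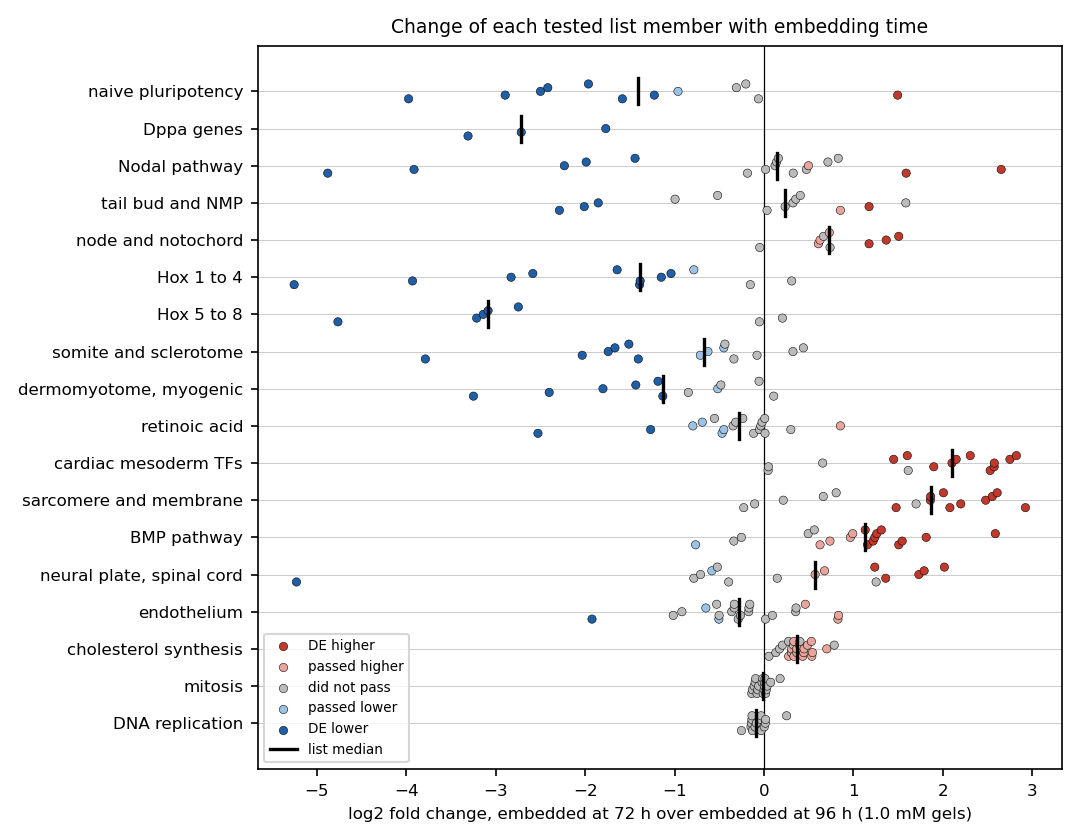
Log2 fold change (embedded at 72 h over embedded at 96 h, 1.0 mM gels) of every tested member of the gene lists named at the left, 1 row per list and 1 point per gene, with dark points DE, pale points passed and grey points not passed, and a black bar at the list median. The points of naive pluripotency, Dppa, Hox and somite lists lie mostly left of 0, those of the cardiac and BMP lists mostly right of 0, and those of mitosis and DNA replication lie around 0.

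The Nodal pathway split by role. Ligands and feedback inhibitors fell, while a coreceptor and a nuclear effector rose. Of 17 members tested, 5 fell and 3 rose. *Lefty2* passed the filter only through the late libraries, and of the other 16 members 4 fell and 3 rose. *Lefty1*, the secreted inhibitor that Nodal signalling switches on, stood at 0.343, 0.289 and 0.463 CPM after early embedding and 13.3, 9.21 and 10.1 CPM after late embedding, a 29.4-fold lower level (log2 fold change -4.88, SE 0.262, adjusted p = 1.46e-05). The early libraries were all below 0.5 CPM and the late ones all above 9 CPM. *Lefty2*, its paralogue and neighbour on chromosome 1, stood at 0.214, 0.0826 and 0.211 against 3.43, 1.95 and 2.45 CPM (log2 fold change -3.91, SE 0.406, adjusted p = 0.000267). The ligand *Nodal* was 3.97-fold lower, at 1.54, 0.785 and 0.632 CPM early and 4.97, 3.003 and 3.78 CPM late. The ligand *Gdf3*, which pairs with Nodal, changed by -2.23 on the log2 scale. All 5 members that fell had their highest late value in replicate 1, and none overlapped between the groups.

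The coreceptor *Cfc1* (Cryptic) rose 6.29-fold, with 113, 119 and 57.03 CPM early and 19.2, 20.7 and 6.15 CPM late (log2 fold change 2.65, SE 0.379, adjusted p = 0.00169). Replicate 3 was the lowest library of each group. *Foxh1*, the forkhead factor through which Smads act on Nodal targets, rose 3.01-fold, from 99.8, 98.7 and 73.2 CPM late to 296, 275 and 246 CPM early, which places the groups far apart. *Furin*, a protease that matures Nodal, rose by 0.50 on the log2 scale, a call lost without 96 h replicate 3 (adjusted p = 0.0543).

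Among genes of the primitive streak, 3 of 15 tested rose and none fell, and 6 rose without 72 h replicate 3 or under DESeq2. *T* (Brachyury), the T-box factor of the streak, tail bud and notochord, stood at 240.1, 293 and 228 CPM early and 138, 107 and 92.2 CPM late, a 2.26-fold higher level (SE of the log2 fold change 0.141, adjusted p = 0.000604). *Lhx1*, a LIM homeobox factor of the streak and lateral mesoderm, moved with it, by 1.62 on the log2 scale, and *Foxh1* was the third.

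*T* also belongs to the node and notochord, and there 6 of 9 genes rose and none fell, with a median of 0.73. *Shh*, the Hedgehog ligand made by the notochord, stood at 54.1, 49.00 and 63.7 CPM early and 23.9, 22.5 and 18.3 CPM late (log2 fold change 1.37, SE 0.129, adjusted p = 0.000151). *Nog*, a secreted BMP antagonist made there, rose 2.84-fold and *Pkd1l1*, a polycystin of the node's sensory cilia, 1.66-fold. *Noto*, a homeobox factor restricted to the node and notochord, did not pass, and its groups overlapped, at 5.36, 7.02 and 7.83 against 5.98, 3.896 and 2.26 CPM. Without 96 h replicate 3, 4 of the 9 genes rose.

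In the list of tail bud and neuromesodermal progenitors, 3 of 13 genes fell and 2 rose, and under DESeq2 4 rose. *Cdx1*, among those that fell, passed the filter only through the late libraries. *Nkx1-2*, a homeobox gene of the progenitors at the posterior end, was 4.88-fold lower, at 0.472, 0.248 and 0.548 against 2.43, 2.03 and 1.78 CPM. *Cdx1*, a caudal homeobox factor that acts on Hox genes, changed by -2.01 on the log2 scale, a call lost without 96 h replicate 3 (adjusted p = 0.0557). *Wnt8a*, a posterior Wnt ligand, changed by -1.85, a call lost without 96 h replicate 3 (adjusted p = 0.0705). *Cdx2*, the related caudal gene, did not pass (5.75, 3.64 and 6.23 against 9.95, 6.05 and 6.37 CPM). The members that rose were *T* and *Cyp26a1*, an enzyme that breaks down retinoic acid in the tail bud, which went from 20.3, 22.4 and 16.6 to 34.2, 39.2 and 33.7 CPM.

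**Figure D2:**
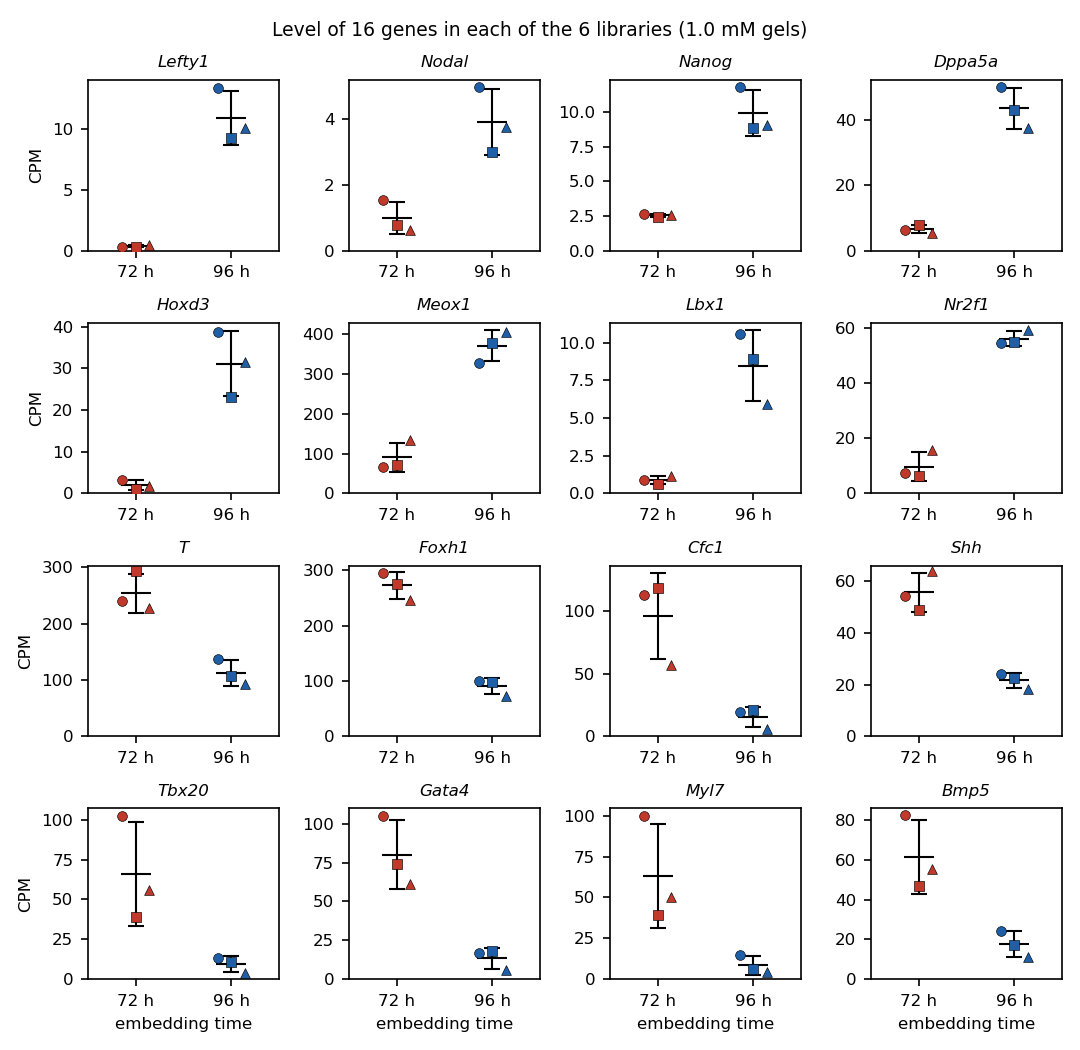
CPM (linear axes from 0) of 16 genes in each of the 6 libraries of the 1.0 mM gels, red for embedding at 72 h and blue for 96 h, with a circle, square and triangle for replicates 1, 2 and 3 and bars for the mean ± SD (n = 3). In each of the 16 panels the groups do not overlap, and in the panels of *Tbx20*, *Myl7*, *Gata4* and *Bmp5* replicate 1 is the highest early library.

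Hox genes fell in most of the members tested. Of 12 tested genes of paralogue groups 1 to 4, 10 fell and none rose. Of the 11 genes of groups 5 to 8, 7 had enough counts to be tested, and 5 of these fell. Of the 16 genes of groups 9 to 13, 2 could be tested and both fell. Of these genes, 1 of the 12 (*Hoxc4*), 2 of the 7 (*Hoxa7* and *Hoxb7*) and 1 of the 2 (*Hoxb9*) passed the filter on low counts only through the late libraries and so had to differ. Without them, 9 of 11 fell in groups 1 to 4, with a median log2 fold change of -1.39, 3 of 5 in groups 5 to 8, with a median of -2.75, and 1 of 1 in groups 9 to 13. Leaving out any 1 library left 9 or 10 genes fallen in groups 1 to 4 and 5 in groups 5 to 8.

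Within the Hoxa cluster the fall grew with the paralogue number. *Hoxa2* stood at 21.5, 25.6 and 33.4 CPM early and 63.5, 74.3 and 72.8 CPM late, 2.61-fold lower, with no overlap between the groups. *Hoxa3* followed at 3.12-fold, *Hoxa4* at 6.001-fold and *Hoxa5* at 9.28-fold, the last with 0.0429, 0.413 and 0.379 CPM early and 2.51, 2.56 and 2.85 CPM late. *Hoxa7* had 3 counts in all early libraries and 99 in all late ones, a ratio of 30.32 (95% interval of counting error 10.08 to 149.5). The order of these folds is a description of 5 genes, and the differences between neighbours were not tested.

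In the Hoxd cluster, *Hoxd3* had, after *Lefty1*, the greatest fall of all genes with at least 100 counts on average, from 38.8, 23.1 and 31.6 CPM late to 3.302, 1.07 and 1.77 CPM early (15.2-fold, log2 fold change -3.93, SE 0.311, adjusted p = 7.05e-05). *Hoxd4* was 7.102-fold and *Hoxd8* 6.71-fold lower. *Hoxd1* and *Hoxd9*, at the anterior and posterior ends of those tested, changed by -1.39 and -1.80 on the log2 scale. The call of *Hoxd1* was lost without 96 h replicate 1 or 96 h replicate 2 (adjusted p from 0.0563 to 0.0673). That of *Hoxd9* was lost without 72 h replicate 1, 72 h replicate 2, 96 h replicate 1 or 96 h replicate 2 (adjusted p from 0.0622 to 0.09295).

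The Hoxb cluster was the one in which genes failed to pass. *Hoxb1* and *Hoxb2* stood at 19.9, 15.5 and 12.8 and 65.1, 59.5 and 63.6 CPM early and at 12.7, 12.9 and 13.3 and 70.97, 74.4 and 63.9 CPM late, with overlapping groups. *Hoxb5* and *Hoxb6* overlapped as well, at 2.101, 0.454 and 1.31 and 0.815, 0.207 and 0.884 CPM early and 1.31, 1.22 and 0.815 and 0.578, 0.609 and 0.778 CPM late. Between and beyond them, *Hoxb3* was 1.72-fold, *Hoxb4* 2.22-fold and *Hoxb8* 8.81-fold lower after early embedding, *Hoxb8* at 0.858, 0.331 and 0.168 against 4.74, 3.003 and 4.26 CPM. *Hoxb9* had 2 counts in all early libraries and 284 in all late ones, a ratio of 130.5 (35.78 to 1082). The antisense gene *Hoxb5os* had 0 counts early and 64 late, at least 19.6-fold lower after early embedding when the early group is set to 3 counts. The strand setting of the counting is not given in the sources used here, so reads of *Hoxb5os* and its neighbours may not be told apart. *Hoxc4*, the tested gene of the Hoxc cluster, had 1 count early and 56 late, a ratio of 51.45 (8.864 to 2068).

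DE-lower genes also lay side by side. The non-coding *Halr1* and *Hotairm1* of the Hoxa cluster were DE lower with its coding genes, *Hotairm1* at 1.33, 1.45 and 1.47 CPM early and 3.55, 3.53 and 4.15 CPM late. A run of 6 genes, adjacent among the genes tested and all DE lower, covered chr2:74697727-74765142 (coordinates as in the deposited tables, mm10), from *Hoxd9* to *Hoxd1*, with the antisense *Haglr* at 1.46, 1.07 and 0.927 against 3.55, 3.45 and 3.11 CPM. A run of 4 covered chr11:96271457-96306910, from *Hoxb9* to *Hoxb5os*. Coding and non-coding genes of a run overlap in part, and their counts are not independent.

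**Figure D3:**
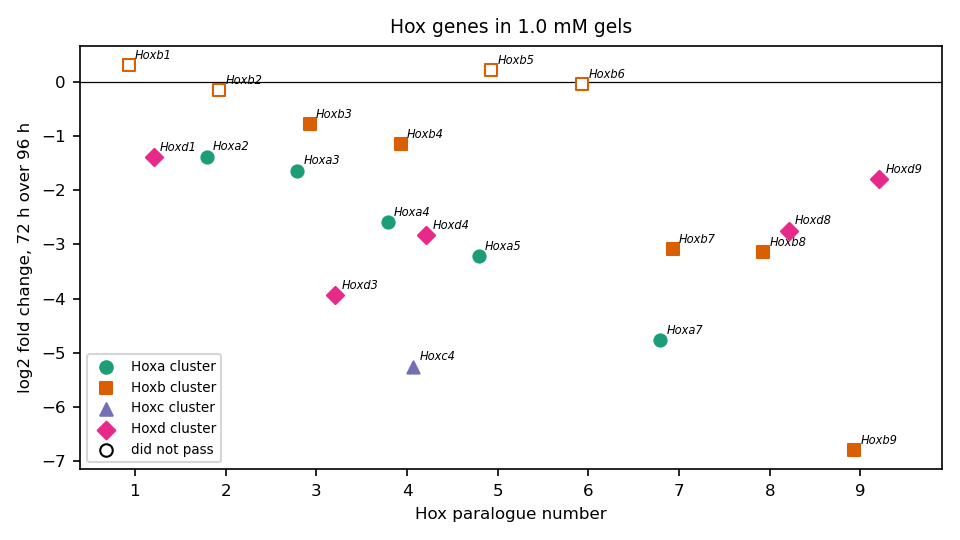
Fitted log2 fold change (72 h over 96 h) of the Hox genes described here, against paralogue number, with a colour and marker for each cluster and open markers for genes that did not pass. Most genes lie below 0, in the Hoxa cluster further down at higher numbers and in the Hoxd cluster higher again from *Hoxd3* to *Hoxd9*, while *Hoxb1*, *Hoxb2*, *Hoxb5* and *Hoxb6* lie near 0, and the fitted values of *Hoxb9*, *Hoxa7* and *Hoxc4* rest on 3 or fewer early counts and on the prior count of the fit.

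Somite genes fell together. Of 14 genes of somites and sclerotome, all tested, 9 fell and none rose, with a median of -0.67. *Meox2* and *Meox1*, homeobox factors of the somite, led the list. *Meox2* stood at 1.37, 0.868 and 2.696 CPM early and 22.4, 21.996 and 23.9 CPM late, a 13.8-fold lower level (log2 fold change -3.79, SE 0.277, adjusted p = 6.73e-05). *Meox1*, which was more abundant, stood at 65.7, 72.5 and 133 against 327, 378 and 405 CPM (log2 fold change -2.03, SE 0.2199, adjusted p = 0.000301). Early replicate 3 was the highest early library for both, and in fact for all 9 genes that fell, without reaching the late group in any of them.

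*Tcf15* (Paraxis), which makes somites epithelial, was 3.35-fold lower, *Tbx18*, a factor of the anterior part of each somite, 3.17-fold, *Uncx*, of the posterior part, 2.85-fold, and *Pax1*, of the sclerotome, 2.65-fold, a call lost in the fit to all 12 libraries (adjusted p = 0.051). *Foxc1*, a forkhead factor of the whole paraxial mesoderm, fell less, from 256, 275 and 275 CPM late to 133, 179.7 and 208 CPM early (1.54-fold), and its call was lost without 96 h replicate 3 (adjusted p = 0.0541). Summed over the list, the early libraries held 636, 768.5 and 1010 CPM and the late ones 1348, 1507 and 1526 CPM.

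The dermomyotome, the part of the somite that gives muscle and dermis, showed the same direction in 7 of 11 genes tested of 16, with no rise and a median of -1.13. *Lbx1*, a homeobox factor of migrating muscle precursors, stood at 0.9004, 0.6197 and 1.14 CPM early and 10.6, 8.89 and 5.93 CPM late (9.51-fold, adjusted p = 0.000115). *Dmrt2*, a factor of the dermomyotome, stood at 2.79, 4.88 and 4.84 against 20.2, 18.2 and 27.8 CPM. *Sim1* and *Pax3*, transcription factors of the dermomyotome, were 3.48-fold and 2.701-fold lower, and *Met*, the receptor of migrating precursors, 2.19-fold. None of these overlapped between groups.

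Upstream of the somite, in presomitic mesoderm, 4 of 18 genes fell and 1 rose. *Ripply1*, which ends presomitic gene expression, was 2.73-fold lower. *Hes7*, an oscillating repressor of the segmentation clock, stood at 0.858, 0.537 and 0.505 CPM early and 3.32, 1.58 and 1.67 CPM late, a call lost without 96 h replicate 1 (adjusted p = 0.0523). *Dkk1*, a secreted Wnt inhibitor, rose from 31.03, 29.7 and 20.3 to 61.6, 67.8 and 57.3 CPM. *Tbx6*, the factor that specifies presomitic mesoderm, did not pass, at 1.501, 1.65 and 0.842 against 2.31, 1.502 and 1.19 CPM. Without 96 h replicate 1, 2 of the 18 genes fell.

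Retinoic acid, made in somites, acts on Hox genes and the neural tube. Of 18 genes of its synthesis, breakdown and response, 6 fell and 1 rose. *Nr2f1* (COUP-TFI), a nuclear receptor induced by retinoic acid, was 5.77-fold lower, with 7.33, 6.24 and 15.7 CPM early and 54.5, 54.9 and 59.2 CPM late, and its paralogue *Nr2f2* was 2.41-fold lower. *Meis2*, a homeobox cofactor of Hox proteins, was 1.74-fold lower. *Aldh1a2*, which makes retinoic acid, went from 118, 119 and 122 CPM late to 85.5, 83.95 and 92.7 CPM early, a smaller fall (1.36-fold) with no overlap. The call of *Aldh1a2* was lost in the fit to all 12 libraries (adjusted p = 0.0633). The enzyme *Cyp26a1* was the one that rose.

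Heart genes moved the other way. Of 15 transcription factors of cardiac mesoderm, all tested, 11 rose, all of them DE, and none fell, with a median of 2.10. *Tbx20*, a T-box factor of heart precursors, stood at 102.2, 39.2 and 56.1 CPM after early and 13.5, 10.8 and 3.74 CPM after late embedding, a 7.07-fold higher level (log2 fold change 2.82, SE 0.414, adjusted p = 0.00196). *Gata4*, a zinc finger factor of heart and endoderm, stood at 105, 74.2 and 61.6 against 16.8, 17.9 and 5.78 CPM (log2 fold change 2.57, SE 0.331, adjusted p = 0.000992). Both were apart between the groups, with replicate 1 the highest early library and replicate 3 the lowest late one.

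*Gata5*, the third cardiac GATA factor beside *Gata6*, rose 5.95-fold and *Gata6* 3.04-fold, the latter with early values close together (112, 102.3 and 101 CPM against 37.4, 39.3 and 27.2 CPM). *Nkx2-5*, a homeobox factor of heart precursors, rose 5.77-fold, *Myocd* (myocardin), a coactivator of muscle genes, 4.95-fold, and *Mef2c*, a factor of the second heart field, 3.73-fold. *Tbx5*, of the first heart field, stood at 5.02, 2.85 and 2.401 CPM early and 1.12, 0.365 and 0.0371 CPM late, a call lost without 96 h replicate 2 (adjusted p = 0.0718). *Hand2*, of the right ventricle and limb bud, rose 4.29-fold, and its divergent non-coding neighbour *Hand2os1* 5.35-fold. *Hand1*, of the left ventricle and lateral mesoderm, stood at 205, 73.2 and 83.2 against 37.8, 38.5 and 5.34 CPM, a call lost without 72 h replicate 1, 96 h replicate 1 or 96 h replicate 2 (adjusted p from 0.0563 to 0.0749). *Isl1*, which marks the second heart field, rose least of the 11, 2.73-fold.

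Genes of the contractile apparatus rose with the factors. Of 16 sarcomere and membrane genes tested of 21, 10 rose, all DE, and none fell, with a median of 1.86. *Myl7*, the atrial myosin light chain, had the greatest rise of genes with at least 100 counts on average, predicted genes left out, at 99.7, 39.5 and 50.5 CPM early and 14.9, 5.93 and 4.15 CPM late (7.58-fold, SE of the log2 fold change 0.436, adjusted p = 0.00216). *Myl4*, another atrial light chain, rose 5.87-fold, *Ttn* (titin), the spring of the sarcomere, 5.57-fold, and *Ryr2*, the calcium release channel, 4.02-fold. *Tnnt2* (cardiac troponin T) stood at 58.5, 15.7 and 30.2 against 11.2, 3.45 and 2.45 CPM, a call lost without 96 h replicate 2 (adjusted p = 0.0596). *Myh6*, the atrial myosin heavy chain, was one of the 2 members that rose with overlapping groups (22.1, 4.59 and 8.17 against 5.01, 1.26 and 1.297 CPM), and its call was lost without 72 h replicate 1, 72 h replicate 3, 96 h replicate 2 or 96 h replicate 3 (adjusted p from 0.05201 to 0.155). *Actc1*, the cardiac actin, and *Tnni3*, cardiac troponin I, did not pass (12.3, 4.96 and 8.68 and 5.49, 5.45 and 3.37 CPM early, 6.51, 3.69 and 4.59 and 5.47, 4.46 and 5.45 CPM late).

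The libraries of a group differed in how much of this programme they held. Replicate 1 was the highest early library for all 11 factors and all 10 contractile genes that rose. Summed over the 15 factors, the early libraries held 1198, 756.9 and 817.2 CPM and the late libraries 370.9, 331.1 and 209.5 CPM. The contractile list summed to 840.5, 487.5 and 640.3 CPM early and 385.8, 322.1 and 308.9 CPM late. That sum includes *Atp2a2*, which did not pass and had the most counts of the list in every library. It had 6742, 6418 and 7421 counts early and 6349, 6119 and 6840 late. Leaving out any 1 library left 9 to 12 of the factors and 7 to 12 of the contractile genes past the test. The somite lists had their highest early library in replicate 3 and the cardiac lists in replicate 1, so early libraries differed in both.

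**Figure D4:**
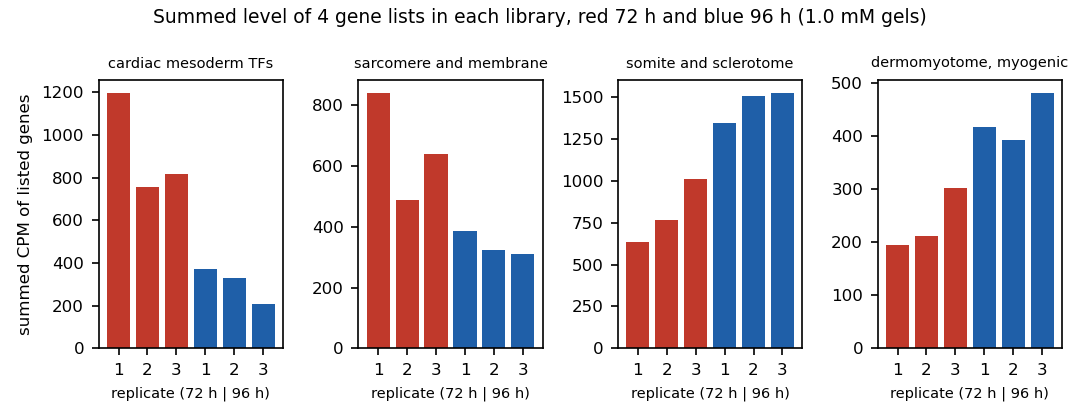
Summed CPM (bars from 0) of 4 gene lists in each library, with replicates 1 to 3 embedded at 72 h in red and at 96 h in blue, a level summed over all listed genes with a value. The cardiac lists are higher in all 3 red bars, and the somite and dermomyotome lists are higher in all 3 blue bars.

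Promoter sequences were read for 484 of the 678 DE genes, which RefSeq gives in a window from 250 bases before to 50 after the start. The motif GATAA, the core to which GATA factors bind, was on either strand in 24% of 387 promoters of DE-higher genes, in 18.9% of 217 promoters of DE-lower genes and in 16.2% of all 14533 promoters of tested genes. Among DE-higher genes of the cardiac lists, it was in 6 of 21 promoters (28.6%). The 4 promoters below, of contractile genes, a cardiac factor and a Wnt ligand that rose, were picked among those that hold GATAA. Capitals mark GATAA, or TTATC where it lies on the opposite strand. The promoters are printed over the 120 bases before the start, 5′ to 3′ on the gene's strand. In RefSeq on GRCm38.p6 they lie at chr11:5898783-5898902 (minus strand, *Myl7*), chr9:110763558-110763677 (plus strand, *Myl3*), chr13:116309689-116309808 (minus strand, *Isl1*) and chr6:18030446-18030565 (minus strand, *Wnt2*).
Myl7 promoter: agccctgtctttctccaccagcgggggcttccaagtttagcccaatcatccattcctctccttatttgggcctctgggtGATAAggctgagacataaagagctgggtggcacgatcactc
Myl3 promoter: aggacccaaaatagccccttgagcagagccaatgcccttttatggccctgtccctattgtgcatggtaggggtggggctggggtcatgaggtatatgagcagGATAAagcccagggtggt
Isl1 promoter: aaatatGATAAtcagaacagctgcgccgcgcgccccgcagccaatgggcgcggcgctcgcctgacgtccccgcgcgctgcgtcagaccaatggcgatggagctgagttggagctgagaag
Wnt2 promoter: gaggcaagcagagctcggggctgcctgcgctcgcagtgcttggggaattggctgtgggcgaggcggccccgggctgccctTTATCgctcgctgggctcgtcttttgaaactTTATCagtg
The match begins 41 bases before the start in *Myl7*, 18 in *Myl3* and 114 in *Isl1*, and lies 40 and 9 bases before it in *Wnt2*. *Myl3*, a ventricular myosin light chain, stood at 8.28, 4.54 and 6.53 CPM early and 2.89, 2.31 and 1.74 CPM late. A match in letters is a description of the window and not a bound site.

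The other motifs were searched on both strands of the same windows. ACGTG, held within CACGTG, was less frequent in DE-higher (14.7%) and DE-lower promoters (18%) than in all promoters (24.8%), and CACGTG itself stood at 5.68, 8.76 and 9.65% in that order. TAATTA, the core of homeodomain sites, stood at 5.43% of DE-higher, 5.53% of DE-lower and 2.67% of all promoters. In the same order, TATAAA stood at 8.79, 9.68 and 7.19%, CCAAT at 39, 41 and 37.7%, and GGAATG at 15.8, 10.6 and 12.2%. CTTTGA stood at 11.1, 14.3 and 11.8%, and GGTGTGA at 3.62, 3.69 and 3.36%.

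BMP signals, which induce heart and lateral mesoderm and oppose neural fate, showed 14 of 19 genes risen and 1 fallen, with a median of 1.13. Among ligands, *Bmp5* stood at 82.5, 46.9 and 55.4 CPM early and 24.1, 17.4 and 11.2 CPM late (3.52-fold, SE of the log2 fold change 0.257, adjusted p = 0.00165). *Bmp2* rose 2.19-fold and *Bmp7* 1.99-fold, the latter from 55.7, 51.1 and 47.1 to 99.5, 109.8 and 96.7 CPM with no overlap. *Bmp4* stood at 108, 72.1 and 46.2 against 41.2, 37.9 and 15.4 CPM, a call lost without 72 h replicate 1, 72 h replicate 2, 96 h replicate 2 or 96 h replicate 3 (adjusted p from 0.0563 to 0.0902).

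The homeobox targets *Msx2* and *Msx1* rose 6.005-fold and 2.92-fold, *Msx2* from 4.43, 3.81 and 0.778 CPM late to 27.6, 13.9 and 12.5 CPM early. The inhibitory Smad gene *Smad6*, a feedback target, rose 2.23-fold, a call lost without 96 h replicate 2 or 96 h replicate 3 (adjusted p from 0.0573 to 0.0611), and the pseudoreceptor *Bambi* rose 1.95-fold. The call of *Msx1* was lost under DESeq2 (adjusted p = 0.0692). Secreted antagonists moved both ways, since *Nog* rose and *Fst* (follistatin), which binds activins and some BMPs, went from 131, 128 and 146 to 61.02, 72.7 and 105 CPM. The call of *Fst* was lost without 96 h replicate 3 (adjusted p = 0.0545). Late replicate 3 was the lowest late library for 13 of the 14 genes that rose, and without it 8 of the 19 rose.

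Of 12 Wnt ligands tested, 1 rose and 1 fell, and under DESeq2 4 rose. *Wnt2*, a ligand of cardiac and lung mesoderm, stood at 23.2, 11.4 and 14.6 CPM early and 4.16, 2.23 and 0.519 CPM late, a 7.13-fold higher level (log2 fold change 2.83, SE 0.478, adjusted p = 0.00398). Of 12 secreted Wnt antagonists, 5 rose and 1 fell. *Sfrp5*, a Wnt-binding protein of cardiac precursors and foregut, rose 6.18-fold, from 4.703, 3.12 and 1.89 to 26.7, 14.2 and 19.2 CPM, *Wif1* 3.15-fold and *Frzb* 1.81-fold. The feedback target *Axin2* did not pass and overlapped between the groups (52.7, 61.2 and 58.8 against 57.6, 55.7 and 67.95 CPM), and 2 of 11 feedback genes rose and 1 fell.

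Of 14 FGF ligands, 1 rose and 2 fell, of which *Fgf18* passed the filter only through the late libraries. *Fgf10*, a ligand of second heart field and limb mesoderm, stood at 51.6, 35.7 and 47.6 CPM early and 20.5, 14.4 and 13.6 CPM late. *Fgf18*, a ligand of somites and tail bud, was close to the limit of detection early (0, 0.207 and 0.126 against 0.655, 1.299 and 1.56 CPM), and *Fgf4*, the pluripotency ligand, was the other that fell. Genes of feedback on the ERK kinases, which FGF turns on, rose in 5 of 13 cases, among them the phosphatase *Dusp4*, 2.04-fold with 96.8, 80.98 and 86.4 CPM early and 46.03, 38.6 and 45.1 CPM late and the ERK inhibitor *Spry4*, 2.08-fold. Without 72 h replicate 3, or without any 1 of the 96 h replicates, 3 of the 13 rose.

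In the Hedgehog pathway, 3 of 12 genes rose and 3 fell. The ligand *Shh* rose, as above, while the coreceptors *Boc* and *Gas1* fell, *Boc* from 129, 112 and 140.0 to 44.3, 46.7 and 55.6 CPM (2.597-fold) and *Gas1* from 201, 201 and 212 to 71.8, 74.9 and 108 CPM (2.41-fold). *Ptch1*, receptor and target in one, rose 1.52-fold, a call lost without 96 h replicate 2 or 96 h replicate 3 (adjusted p from 0.0503 to 0.0881). In the Notch pathway, 2 of 18 rose and 3 fell, with the repressors *Hey2*, of the ventricle, at 2.76-fold higher and *Heyl* at 2.59-fold lower, the latter call lost without 96 h replicate 3 (adjusted p = 0.0859). Without 96 h replicate 2 or 3, 1 of the 12 Hedgehog genes rose, and without 96 h replicate 1 or 3, 1 of the 18 Notch genes fell.

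Of 15 genes of neural plate and spinal cord tested of 23, 7 rose and 2 fell, and under DESeq2 4 fell. *Lmx1a*, of the roof plate and ventral midbrain, stood at 10.6, 14.3 and 12.4 CPM early and 3.85, 3.49 and 1.89 CPM late (4.05-fold), and *Foxd4*, of the early neural plate, rose 3.46-fold. *Nkx2-2*, of the ventral neural tube, and *Pax6*, of neural progenitors, rose 3.32-fold and 2.36-fold. *Olig2*, of motor neuron progenitors, had 1 count early and 55 late, a ratio of 50.53 (8.699 to 2032), and it passed the filter only through the late libraries and so had to differ. Without 72 h replicate 2, 96 h replicate 1 or 96 h replicate 3, 1 of the 15 fell. Of 9 forebrain and midbrain genes, 3 rose, among them *Six3*, a forebrain homeobox factor, at 7.204, 7.02 and 4.09 against 1.89, 1.34 and 1.33 CPM, and *Hesx1*, of the anterior neural plate, which passed the filter only through the early libraries and whose call was lost without 72 h replicate 2, 96 h replicate 1 or 96 h replicate 3 (adjusted p from 0.0633 to 0.0938). Without 96 h replicate 3, 1 of the 9 rose.

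Genes of neurons split, with 3 of 13 risen and 4 fallen. *Map2*, a microtubule protein of dendrites, rose from 6.71, 8.12 and 4.56 to 20.2, 21.1 and 21.02 CPM, while *Mapt* (tau), its counterpart in axons, fell from 4.47, 3.33 and 5.52 to 1.59, 1.74 and 1.895 CPM and *Gap43*, of growing axons, from 6.82, 7.35 and 7.82 to 2.701, 2.23 and 3.45 CPM. *Nefl*, a neurofilament subunit, was 2.23-fold lower. Of 10 neural crest genes, 3 rose and 3 fell. *Foxd3*, an early crest factor that stem cells also express, was 3.59-fold lower, a call lost without 96 h replicate 1 or 96 h replicate 2 (adjusted p from 0.0593 to 0.0625). The risen members included *Msx1* and *Msx2*, counted above as BMP targets.

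Of 15 genes of definitive endoderm and gut, 6 rose, none fell and 9 did not pass. Of those that rose, *Shh* and *Foxa2* were also counted in the node and notochord list, and *Prdm1* in the germ-cell list. *Pyy*, a gut peptide hormone, stood at 3.09, 4.503 and 1.81 CPM early and 0.732, 0.406 and 0.333 CPM late. *Hnf4a*, a nuclear receptor of gut and visceral endoderm, stood at 3.34, 1.28 and 0.463 against 0.463, 0.162 and 0.0371 CPM, a call lost without 72 h replicate 1, 96 h replicate 2 or 96 h replicate 3 (adjusted p from 0.114 to 0.134). *Sox17*, the defining factor of definitive endoderm, overlapped between the groups and did not pass (30.8, 24.2 and 20.8 against 30.8, 26.3 and 27.97 CPM). Without 72 h replicate 1, 96 h replicate 2 or 96 h replicate 3, 3 of the 15 rose. In the yolk sac list, 2 of 6 rose (1 without any one of the same libraries), *Hnf4a* and *Ttr* (transthyretin), the latter at 7.204, 2.44 and 1.895 against 0.732, 0.7305 and 0.148 CPM. Of 7 trophoblast genes, 1 had enough counts to be tested and it did not pass.

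Of 22 endothelial genes, 3 rose and 3 fell, with a median of -0.28, and under DESeq2 3 rose and 6 fell. *Cldn5*, the claudin of endothelial junctions, was 3.79-fold lower (4.42, 4.71 and 9.603 CPM early, 24.5, 21.6 and 24.97 CPM late). *Tal1*, a factor of blood and endothelial precursors, rose 1.78-fold, from 22.5, 19.5 and 19.2 to 38.8, 37.1 and 33.2 CPM. The endothelial counts rest on single libraries: 1 rose without 96 h replicate 3, 1 fell without 96 h replicate 2 or 3, and 6 fell without 72 h replicate 3. Of 4 primitive blood genes tested of 12, none passed. In intermediate and lateral plate mesoderm, 5 of 11 rose and 1 fell (3 and 0 under DESeq2), with *Tcf21*, of the epicardium and visceral mesoderm, 2.06-fold higher and the kidney factor *Pax8* lower (log2 fold change -1.93), which passed the filter only through the late libraries, a call lost without 72 h replicate 3 or 96 h replicate 1 (adjusted p from 0.0573 to 0.0604). Without 72 h replicate 1 or 96 h replicate 2, 3 of the 11 rose.

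Genes that report on the gel or on the state of the cells were listed as well. Of 16 targets of YAP and TAZ, the coactivators that read stiffness and cell density, 1 rose and 1 fell, and of 20 targets of SRF, which reads actin, 2 rose. These counts are near those that the shares of all genes tested, 5.97% risen and 3.27% fallen, give for lists of this length. The kinase *Nuak2*, a YAP target, was the DE member (2.25-fold lower). Of 17 collagens, 4 rose and 2 fell, with the basement membrane chain *Col4a6* 2.42-fold and *Col6a1* 2.36-fold higher. Of 23 integrins, laminins and basement membrane genes, 4 rose and 1 fell, led by *Itgb8*, a subunit that activates TGF-beta (2.08-fold). Members that passed numbered 3 of 14 among matrix proteases and their inhibitors, 6 of 20 among epithelial and 3 of 12 among mesenchymal genes, in both directions. These small counts moved with single libraries: collagens rose in 2 cases without 96 h replicate 2 or 3, integrins and basement membrane genes in 9 without 72 h replicate 2, and epithelial genes fell in 1 case without 96 h replicate 3.

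Proliferation genes did not pass. Of 20 mitosis genes and 15 DNA replication genes, none rose or fell, with medians of -0.01 and -0.09. *Mki67*, the proliferation antigen, stood at 435, 378 and 345 CPM early and 407, 368 and 476 CPM late, an overlap. None of 6 heat shock genes and 13 Clk and SR splicing genes passed either, 1 of 17 immediate-early genes fell, and 2 of 18 p53 targets rose (0 without 72 h replicate 2 or 96 h replicate 1). All 13 Clk and SR splicing genes had a negative sign, with a median of -0.19.

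Cholesterol synthesis rose by small steps in most of its genes. Of 24 genes of synthesis and uptake, 15 rose, none by a log2 fold change above 1, and all 24 had a positive sign, with a median of 0.37. *Hmgcs1*, an early enzyme of the pathway, went from 543, 474 and 526 CPM late to 827, 676 and 733 CPM early (1.45-fold, adjusted p = 0.00657). *Lss*, which closes the sterol rings, went from 79.6, 70.7 and 74.95 to 126, 97.9 and 104 CPM. The groups did not overlap for any of the 15, but the margin was narrow, and the number that rose was 9 without 72 h replicate 1, 7 without 96 h replicate 2 and 5 without 96 h replicate 3. In the Atf4 stress response list, 7 of 20 rose, among them *Asns* (asparagine synthetase), 1.68-fold, and *Vldlr*, a lipoprotein receptor, 2.09-fold, and the number was 4 without 72 h replicate 1, 3 without 96 h replicate 1 and 2 without 96 h replicate 3. Of 31 glycolysis and hypoxia genes, 3 rose (6 under DESeq2), led by the glucose transporter *Slc2a3*, 1.84-fold, a call lost without 96 h replicate 2 (adjusted p = 0.0695), and the number ran from 0 without 96 h replicate 2 to 10 without 72 h replicate 3.

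The DE genes of highest level lay in part outside these lists. Among the DE-lower genes with the highest mean level were *Col26a1*, a collagen, at 135, 126 and 188 CPM early and 349, 328 and 370.0 CPM late, and *Ptn* (pleiotrophin), a heparin-binding growth factor, at 122, 132 and 164 against 299, 292 and 382 CPM. *Cxcl12*, the chemokine that guides migrating cells, was 5.45-fold lower, with 32.03, 19.9 and 53.1 CPM early and 200.2, 180.2 and 192 CPM late. *Cd36*, a fatty acid transporter, was 2.95-fold lower, *Lrig1*, a restraint on receptor kinases, 2.09-fold, and *Ets1*, a transcription factor of vessels and crest counted in the neural crest list, 2.24-fold. In all 6 the late libraries lay above every early one.

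On the higher side, *Peg10*, an imprinted gene derived from a retrotransposon, stood at 2663, 1644 and 2158 CPM early and 1195, 1081 and 806 CPM late, and *Podxl* (podocalyxin), a surface sialomucin, at 502, 359.9 and 347 against 162, 153 and 147 CPM. *Amot* (angiomotin), which binds YAP, rose 2.06-fold, *Krt8*, a keratin counted in the epithelial list, 2.31-fold, and *Unc5b*, a netrin receptor, 2.63-fold. Of 22 imprinted genes, 5 rose and 1 fell: *Phlda2*, a growth restraint of the placenta, rose 2.69-fold and *Igf2*, a growth factor, 1.82-fold, whereas *Mest* went from 1487, 1590.3 and 1580.5 CPM late to 914, 624 and 1029 CPM early. *CT010467.1*, at 10498, 21632 and 27899 CPM early and 2079, 6927 and 5528 CPM late, and *Lars2*, whose annotation covers a ribosomal RNA-like repeat, at 747, 1431 and 1823 against 205, 461 and 407 CPM, are the structural RNA signal described above, and both calls were lost in the fit to all 12 libraries (adjusted p = 0.156 and 0.152). The RNA subunit *Rmrp* of the RNase MRP moved with them, at 7.16, 14.01 and 32.8 against 1.23, 4.83 and 2.37 CPM, a call lost without 96 h replicate 3 (adjusted p = 0.0504).

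Further genes with large changes and over 100 counts on average lay outside the lists. *Tmem163*, a zinc transporter of membranes, rose 5.76-fold, from 2.31, 1.95 and 1.04 to 9.004, 11.5 and 10.02 CPM. *Sec1*, a fucosyltransferase gene, *Col15a1*, a basement membrane collagen, and *Psd2*, an exchange factor for Arf6, were 6.02-fold, 5.96-fold and 4.34-fold lower, each with no overlap.

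The same comparison of embedding times had been made in the stiffer 1.5 mM gel, in 6 libraries that share none with those above. There 10.4% of 15683 genes rose and 8.98% fell after embedding at 72 h, so a call in that gel is more frequent for any gene. Of the 411 genes DE higher in the 1.0 mM gels, 394 were tested in the 1.5 mM gels, 381 of them had the same sign, 179 passed in the same direction and none passed in the opposite one. Their median log2 fold change was 1.48 in the 1.0 mM and 0.81 in the 1.5 mM gels. Of the 267 genes DE lower, 238 were tested, all 238 had the same sign and 187 passed, and the medians were -1.66 and -1.39. These genes were selected for their size in the softer gel, and values chosen for their size are on average larger than in libraries that took no part in the choice.

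A larger share of the falls than of the rises passed again. In the 1.5 mM gels, 6 of 11 naive pluripotency genes, 3 of 3 Dppa genes, 9 of 11 Hox genes of groups 1 to 4 and 8 of 14 somite genes fell. Of the somite genes, 2 rose there, whereas none rose in the 1.0 mM gels. *Dppa5a* stood at a log2 fold change of -2.48 (adjusted p = 0.000103), *Hoxd3* at -3.36 (0.000542), *Lefty1* at -3.21 (0.00118), *Meox2* at -3.48 (0.000546) and *Nr2f1* at -2.58 (0.000546). Of the cardiac factors, 7 of 15 rose and 1 fell, with a median of 0.85, and of the contractile genes 1 of 16 rose, with a median of 0.46. *Gata4* stood at 1.36 (adjusted p = 0.00776) and *Tbx20* at 1.40 (0.01902), whereas *Myl7* (1.24, adjusted p = 0.103) and *Hand1* (0.26, adjusted p = 0.637) did not pass. BMP genes rose in 5 and fell in 2 of 19, and *Msx2* and *Msx1*, both DE in the softer gel, stood at 0.18 and -0.05 (adjusted p = 0.753 and 0.922). Cholesterol genes rose in 19 of 24, and Clk and SR splicing genes, none of which passed in the softer gel, fell in 8 of 13. *T* and *Shh* stood at 1.42 and 1.46 (adjusted p = 0.0002604 and 0.00287). The genes of the structural RNA signal did not pass in the 1.5 mM gels. *CT010467.1*, *Lars2* and *Rmrp* stood there at 0.23, 0.33 and 0.67 (adjusted p = 0.885, 0.828 and 0.663).

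A fit to the 12 libraries with a term for embedding time by gel asked whether the effect differed between gels. Of 16388 genes, 0% were called at an absolute log2 difference above 1 (0 genes in edgeR, 0 in DESeq2 and 0 in limma-voom). In edgeR, 708 genes had an unadjusted p below 0.05, with a smallest adjusted p of 0.953. Without the filter on low counts, edgeR called 112. The smaller values of the cardiac and BMP lists in the 1.5 mM gels are thus not shown to differ from those in the 1.0 mM gels, gene by gene, with 3 libraries a group.

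**Figure D5:**
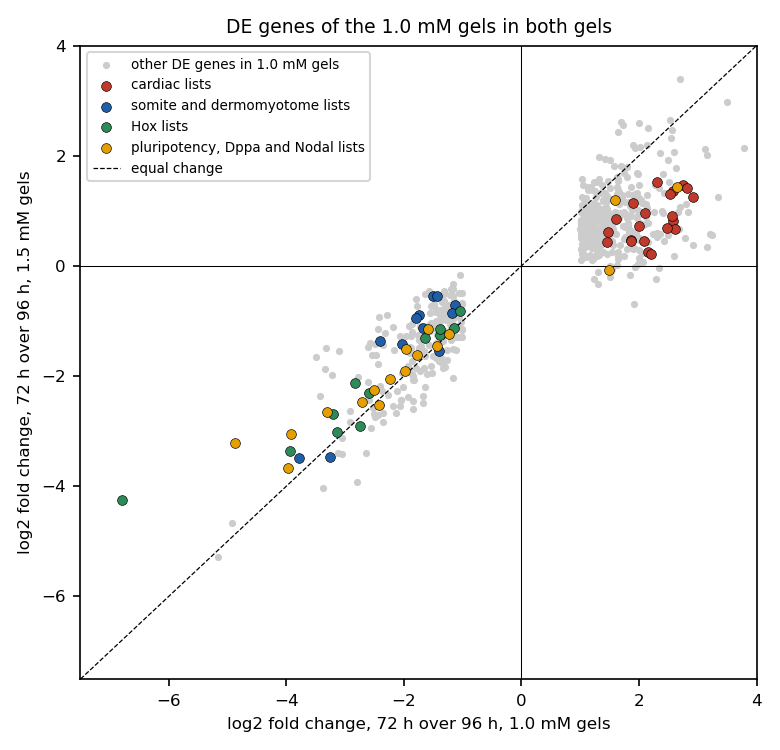
Log2 fold change (72 h over 96 h) of the genes DE in the 1.0 mM gels and tested in both gels, in the 1.0 mM gels (horizontal axis) against the 1.5 mM gels (vertical axis), 1 point per gene, with 4 groups of lists in colour and a dashed line of equal change. All DE-lower genes lie below 0 in both gels, 168 of 238 of them with a smaller change in the 1.5 mM gels. Of the DE-higher genes, 358 of 394 had a smaller change there, and most, the cardiac ones included, lie below the dashed line.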

How the data were processed

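The counts were deposited by the authors as 1 table of raw read counts per gene. Per the study's methods, adapters were trimmed with cutadapt 4.4, reads were aligned to mm10 with STAR 2.7.10b and a customised Ensembl annotation, and libraries were stranded, poly-A selected and sequenced as 75 bp pairs. FPKM values, which the authors computed with Cufflinks 2.2.1.3, were not tested (their table gave the gene coordinates), and the authors' DESeq2 table of fold changes and p-values was not used.

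Replicates are libraries that the labels number 1 to 3 within a group. No pair of replicates agreed within counting noise (chi-squared per degree of freedom 9.23 to 27.6), so each counted as 1. From the counts, 36 mitochondrial genes were removed, genes were filtered with edgeR's filterByExpr (minimum count 10, minimum total 15), and 72 h was tested against 96 h with TMM factors and the quasi-likelihood test of edgeR 4.0.16 (R 4.3.3), with Benjamini-Hochberg adjustment over all 15763 genes. The authors' thresholds were kept, an adjusted p below 0.05 and, for DE, a log2 fold change above 1 in size. DESeq2 1.42.0, limma 3.58.1 (voom), other normalizations, filters and thresholds, and each library left out in turn served as alternatives. The scripts were tested on simulated data. The 23615893 to 27609422 counts of a library leave genes with few counts imprecise, and intervals of count ratios (exact, 95%) cover counting error only.

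The 54 gene lists, their members and the comparison itself were chosen with earlier results of these data known, so no adjustment over a list alone is given. Genes were named by rule: in each direction the 15 DE genes that changed most, given a mean count of 100 or more, libraries that did not overlap between groups and no predicted name, the 10 DE genes of highest level, up to 4 members per list with the largest changes among those that passed (the 2 of highest level where fewer than 2 passed), and *Dppa5a*, *T*, *Hoxa3*, *Sox2* and *Foxc1*. Other genes were named after their values were seen. Promoters and motifs came from RefSeq tables on GRCm38.p6, which matched 11340 of 15759 tested symbols. Values of a few members that the rule names are not reported here.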

Additional observations from a re-analysis of the deposited data

How the results depend on the processing

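The 678 DE genes of the 1.0 mM gels (411 higher, 267 lower) ranged from 545 to 916 under DESeq2, limma-voom, other normalizations, other filters on low counts, all 12 libraries in 1 fit, mitochondrial genes kept and structural RNA genes left out, the last chosen after seeing the data. Without the fold threshold there were 1457 (941 higher, 516 lower), and at an adjusted p below 0.01 there were 387 (213 higher, 174 lower), both by construction. Leaving out 1 library gave 429 to 703 (224 to 439 higher, 205 to 294 lower), lowest without 96 h replicate 3. The share of DE genes that were higher, 60.62%, fell to 52.44% without 96 h replicate 2 and 52.21% without 96 h replicate 3. In the 1.5 mM gels the 498 DE genes ranged from 298 to 636 (115 to 283 higher) when 1 library was left out. The interaction, with 0 calls, gave 112 (100 higher, 12 lower) without the filter on low counts and 4 (4 higher, 0 lower) in a fit with a replicate block, and the cause was not tested.

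Of the 165 named genes with an adjusted p below 0.05, 134 stayed below it and 0 changed direction under each of up to 16 alternatives in which they were tested, and 17 were lost without 96 h replicate 3. DESeq2 lost 7 of them (*Bmp4*, *Hand1*, *Msx1*, *Myh6*, *Pax8*, *Smad6* and *Tbx5*), the fit to all 12 libraries 5 (*Aldh1a2*, *CT010467.1*, *Lars2*, *Pax1* and *Rmrp*), limma-voom 2 (*Hnf4a* and *Myh6*) and upper quartile normalization 1 (*Myh6*). Of 13 other named genes, which did not pass, *Klf4* ranged from -0.2509 to 0.1464 on the log2 scale when 1 library was left out, *Hoxb5* from -0.3383 to 0.6124 (-0.01558 under limma-voom), *Hoxb6* from -0.3674 to 0.3706, *Tnni3* from -0.2163 to 0.09308 and *Axin2* from -0.124 to 0.02062, all of which change sign.

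The same replicate numbers in both groups were checked as a pairing. Deviations from the group means correlated at 0.331, 0.148 and 0.0536 for replicates 1, 2 and 3, and at -0.249 to 0.115 for libraries of unlike number. Each 96 h library correlated best with the 72 h library of its own number. Of the 72 h libraries, however, replicate 3 correlated best with 96 h replicate 2 (0.115). The labels do not say whether a number marks a shared batch, and these values do not settle it. The main fit held no replicate term. With the replicate block, 757 genes were DE (469 higher, 288 lower). In that fit 7 genes of the primitive streak list, 5 of the tail bud list, 4 Wnt ligands and 7 p53 targets rose and 7 endothelial and 5 neural plate genes fell, in place of 3, 2, 1, 2, 3 and 2.

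With 100 bases before the start in place of the longer window, GATAA stood in 7.24% of DE-higher, 6.45% of DE-lower and 4.51% of all tested promoters, and ACGTG in 4.39, 7.83 and 10.6%. Depth limits the ratios of *Hoxb9*, *Hoxa7*, *Olig2* and *Hoxc4*, which rest on 1 to 3 counts over the 3 early libraries.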
